A study of Mus musculus with 6 samples.

Results

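Amino acid transporter genes were compared between wild-type and Alkbh1 knockout mouse embryonic stem (ES) cells. The genes were the rows of the authors' deposited table that were tested and whose symbol belongs to the solute carrier families Slc1, Slc3, Slc6, Slc7, Slc36, Slc38 or Slc43. The symbol rule matched 64 of the 23951 genes in the table. Of these 64, 43 were tested, out of 14095 genes tested in all. The other 21 were not tested and are given at the end. Among the 43, Slc7a6os and Slc36a1os carry a carrier's name because they lie on the opposite strand beside it, so 41 tested genes were carriers by name.

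The line was TT2, of C57BL6 x CBA background, kept free of feeder cells and used at passage 5. The wild-type (WT) group was 2 libraries of TT2 cells, and the Alkbh1 KO group was 4 libraries, 2 from each of 2 clones. Alkbh1 is a gene for an AlkB-type dioxygenase, and the comparison asks which messenger RNAs differ when it is disrupted. The values were 1 FPKM (fragments per kilobase of transcript, scaled to sequenced fragments) per genotype, pooled over its libraries by the authors, so no library value, SD or overlap between libraries can be given and the depth is unknown.

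Amino acids cross membranes on carriers with overlapping substrates. Light chains of the Slc7 family reach the cell surface bound to a heavy chain of the Slc3 family and exchange one amino acid for another, while sodium-coupled carriers of the Slc1, Slc6 and Slc38 families load the cell against a gradient. Carriers of the Slc36 and Slc38 families also sit on the lysosome, where amino acids are sensed by the kinase complex mTORC1. Mouse ES cells are known for a high use of threonine and glutamine.

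Facts of the whole table bear on every value below. A gene counted as called where its deposited q was under 0.05, and by that rule 50.8% of tested genes were called, 22.4% higher and 28.4% lower in KO. Of the 43 genes, 13 had the smallest deposited p-value, 5e-05, and therefore cannot be ranked by it. Abundant genes were mostly lower and scarce genes mostly higher, with a median log2 fold change of 0.69 in the lowest decile by mean FPKM and -0.72 in the highest. The FPKM of tested genes summed in KO to 63.6% of the WT sum, and setting both sums equal would raise every log2 fold change by 0.65. The KO values come from 2 clones, and genotype and clone cannot be told apart. In the authors' deposited table Alkbh1 stood at 33.9 (WT) and 18.1 FPKM (KO) (log2 fold change -0.90, q = 0.0943) and was not called. Of 12 markers of ES cells 8 (66.7%) were called lower and 1 (Tfcp2l1) higher, and all 12 were detected. The means of these 12 markers ran from 18.2 (Tfcp2l1) to 2926 FPKM, so not all of them lay in the highest decile. Of all tested genes, 77.2% were called lower in the highest decile, 59.8% in the next and 31.3% in that of Tfcp2l1. The median difference of these 12 markers from the medians of their deciles was 0.048. The summed level of 12 fibroblast markers was 9.85 (WT) and 15.4 FPKM (KO), and that of 12 endoderm markers 4.60 and 3.999 FPKM. Thy1 alone gave 6.43 and 9.39 FPKM of the fibroblast sums. Of 6 tested fibroblast markers 4 (66.7%) were called higher and 2 (Acta2 and Twist1, 33.3%) lower. Of 4 tested endoderm markers 2 (50%) were called higher and 2 (50%) lower. Among all tested genes with a mean under 10 FPKM these shares were 34.2% and 11.2%. The part of these markers in the results below was not tested.

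Transporter genes moved in both directions, and the direction differed between abundant and scarce carriers. By the authors' deposited q, 18 of the 43 genes (41.9%, against 22.4% of all tested genes) were called higher in KO, 9 (20.9%, against 28.4%) lower, and 16 not called. With at least a 2-fold difference as well, 9 were higher and 3 (Slc1a3, Slc7a3 and Slc7a6os) lower, against 9.04% and 5.36% of all tested genes. The median log2 fold change was 0.35, beside -0.06 over all tested genes. The genes called lower stood at 4.30 FPKM (Slc1a3) or more in WT, and they include Slc7a3 and Slc3a2, the most abundant of the 43. The genes called higher started from at most 16.9 FPKM in WT (Slc6a6). Among 15 genes with a mean of at least 10 FPKM, 3 were higher and 7 lower, where all tested genes of that level were 7.47% higher and 50.8% lower. Among 28 genes below that mean, 15 were higher and 2 (Slc1a3 and Slc7a14) lower, where all tested genes of that level were 34.2% higher and 11.2% lower. Spearman's rho between fold change and mean FPKM was -0.60 across the 43 genes and -0.55 across all tested genes, both descriptions across genes that share their libraries.

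**Figure D1:**
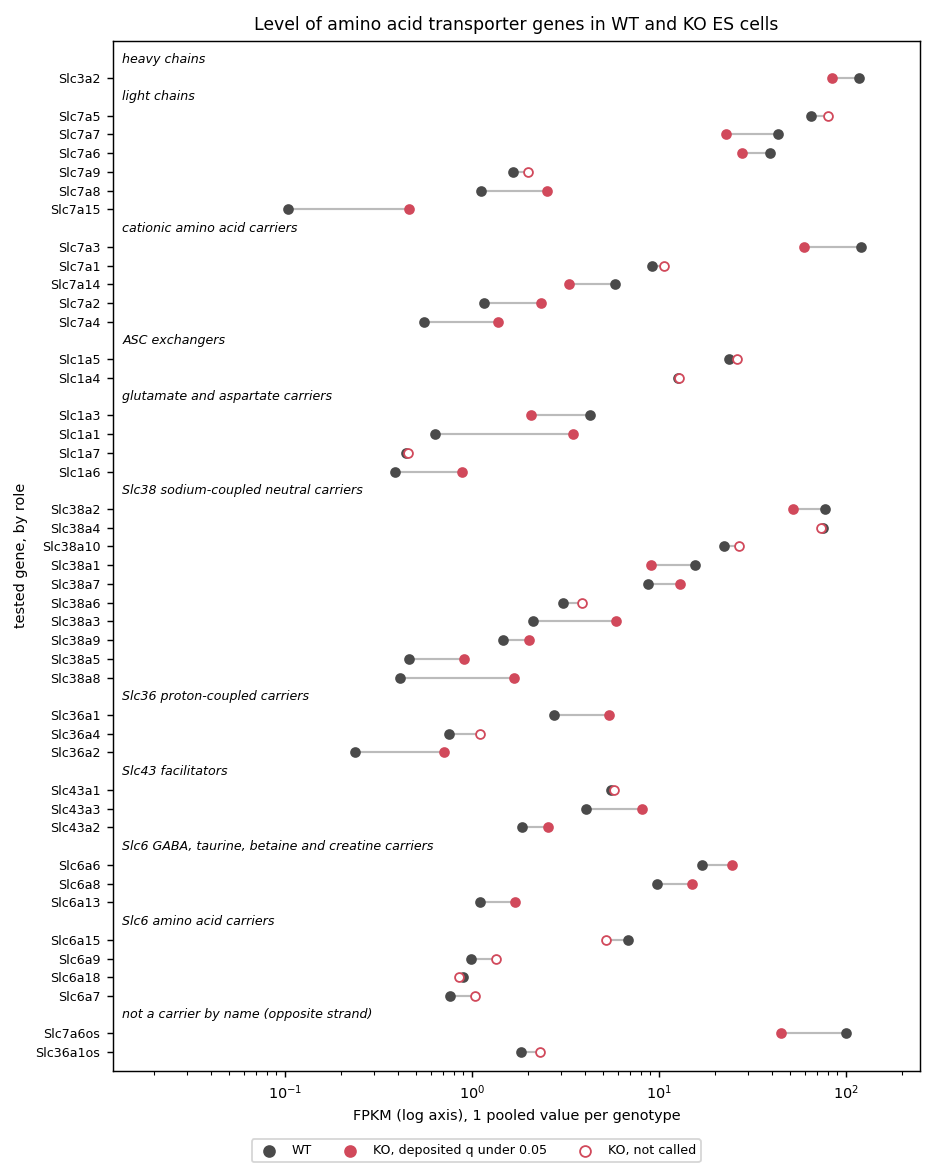
FPKM of the 43 tested genes in WT (dark) and KO (red) on a log axis, 1 pooled value per genotype, grouped by role. Slc7a3 fell from the highest place to below Slc3a2, Slc7a5 and Slc38a4, and Slc1a1 shows the widest step upward.

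The order of abundance changed at the top. In WT the carriers with the highest FPKM by the authors' deposited table were Slc7a3 (120 FPKM), Slc3a2 (118 FPKM), Slc38a2 (77.1 FPKM), Slc38a4 (75.5 FPKM) and Slc7a5 (65.3 FPKM). In KO the order was Slc3a2 (84.0 FPKM), Slc7a5 (80.5 FPKM), Slc38a4 (73.2 FPKM), Slc7a3 (59.4 FPKM) and Slc38a2 (52.3 FPKM). The 7 carriers that led in WT, these 5 with Slc7a7 and Slc7a6, held 76.2% of the summed FPKM of the 41 carriers in WT and 66.2% in KO. These 7 were picked by their WT values, and that choice in itself favours a smaller share in KO. They lay in deciles 10, 9 and 8 by mean FPKM, counted upward, where the medians of all tested genes were -0.72, -0.51 and -0.34. Whether the share of these 7 fell beyond that was not tested. Without library values, neighbours in these orders cannot be told apart beyond their spread. Shares and orders within a genotype do not depend on a single scale factor between the genotypes.

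The heavy chain that serves most light chains fell, and its light chains did not move together. Slc3a2 (mm9, chromosome 19, 8781371 to 8797859) encodes CD98, the heavy chain that carries light chains to the cell surface. It fell from 118 to 84.0 FPKM by the authors' deposited table (log2 fold change -0.49, q = 0.004), a direction that turns (0.16) with equal totals. That fall was smaller than usual for its level: 72.1% of tested genes in its decile lay lower. Slc7a5 (chromosome 8, 124405045 to 124431586), the LAT1 light chain that imports leucine and other large neutral amino acids, stood at 65.3 (WT) and 80.5 FPKM (KO) by the authors' deposited table (0.30, q = 0.084) and was not called. It nevertheless lay above 94.9% of the tested genes of its decile.

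The y+LAT light chains of Slc3a2, which exchange cationic for neutral amino acids, were called lower in KO. Slc7a6 (chromosome 8, 108692774 to 108722604), which encodes y+LAT2, fell from 39.2 to 27.9 FPKM by the authors' deposited table (-0.49, q = 0.00424), and turns to 0.16 with equal totals. Slc7a7 (chromosome 14, 54980524 to 55036539), which encodes y+LAT1, fell from 43.3 to 22.7 FPKM by the authors' deposited table (-0.93, q = 0.00039). The table gives Slc7a7 and its neighbour Oxa1l the same joined region, so reads of these overlapping genes are uncertain. Oxa1l was not called, at 31.4 (WT) and 24.4 FPKM (KO) by the authors' deposited table (-0.36, q = 0.171). Slc7a8, which encodes the LAT2 light chain and lies on the same chromosome at 55341051 to 55400723, rose from 1.12 to 2.53 FPKM by the authors' deposited table (1.17, q = 0.000206).

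The make-up of this group shifted toward Slc7a5. Of the summed FPKM of Slc7a5, Slc7a6, Slc7a7 and Slc7a8, Slc7a5 held 43.9% in WT and 60.2% in KO, and Slc7a7 held 29.1% and 17.0%. The 4 light chains together stood at 1.26 times the FPKM of Slc3a2 in WT and at 1.59 times in KO. These are ratios of pooled values with no error, and FPKM is given per transcript length, so the genes can be set side by side. Slc7a9, the light chain that pairs with the heavy chain Slc3a1, stood at 1.65 and 1.99 FPKM by the authors' deposited table (0.27, q = 0.345) and was not called. Slc7a15, grouped here with the light chains, rose from 0.104 to 0.460 FPKM by the authors' deposited table (2.15, q = 0.00652). Its WT value lay below the highest FPKM of an untested row (0.366), so it may have been tested through KO alone. With a pseudocount of 1 its log2 fold change was 0.40.

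Among the called genes with a promoter window, Slc7a7 alone held the amino acid response motif, to which the stress factor ATF4 binds together with partners. The motif was searched as TGATGNAA on both strands in RefSeq windows of 300 bases (250 before to 50 after a start, build GRCm38.p6). Of the 43 genes 29 had a window, 18 of them called. The other called genes were not searched, nor was any sequence outside the windows. The motif stood in the windows of Slc7a7 and of the uncalled Slc1a4, 2 of 29 genes (6.90%), against 2.70% of the 10405 tested genes with a window. Slc7a7 had 5 windows, and 2 of them held it. A gene with more windows had more chances of a match. The stretch before its outermost start (chr14:54417945-54418194, GRCm38.p6, minus strand) and the 30 bases around each match are shown, 5′ to 3′ on the gene's strand, with the match in capitals. Their letters show a pair of matches in Slc7a7, one of them across the start, and a reverse-strand match at the start of Slc1a4.
Slc7a7 before the start: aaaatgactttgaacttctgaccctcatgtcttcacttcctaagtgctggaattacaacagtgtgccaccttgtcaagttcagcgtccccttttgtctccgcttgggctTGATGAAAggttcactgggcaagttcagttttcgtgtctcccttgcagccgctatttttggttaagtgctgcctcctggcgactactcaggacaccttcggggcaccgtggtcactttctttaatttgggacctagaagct
Slc7a7 upstream match: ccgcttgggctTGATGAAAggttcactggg
Slc7a7 match across the start: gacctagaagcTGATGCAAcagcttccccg
Slc1a4 match at the start: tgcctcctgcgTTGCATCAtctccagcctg

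The most abundant gene of the CAT group, whose best-known members carry arginine and lysine, fell. Slc7a3 (chromosome X, 98274559 to 98280691), which encodes CAT3, fell from 120 to 59.4 FPKM by the authors' deposited table (-1.02, q = 0.000206). It was the highest of the 43 genes in WT, and 20.1% of tested genes of its decile lay below it. Slc7a14, a relative of this group, fell from 5.81 to 3.28 FPKM by the authors' deposited table (-0.82, q = 0.000206), lower than all but 4.91% of genes of its level. Slc7a1, the widely expressed CAT1, stood at 9.12 and 10.7 FPKM by the authors' deposited table (0.23, q = 0.213) and was not called.

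The scarcest members of the group rose. Slc7a2, which encodes CAT2, rose from 1.16 to 2.35 FPKM by the authors' deposited table (1.02, q = 0.000206), with 84.0% of its decile lower. Slc7a4 rose from 0.551 to 1.37 FPKM by the authors' deposited table (1.32, q = 0.000206), with 85.9% of its decile lower. Rises were common at these levels: 39.6% of all tested genes in the decile of Slc7a2 and 40.2% in that of Slc7a4 were called higher. The summed FPKM of the 5 genes was 137 in WT and 77.1 in KO. Slc7a3 held 87.9% of that sum in WT and 77.0% in KO, and the share of Slc7a1 went from 6.65% to 13.9%.

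**Figure D2:**
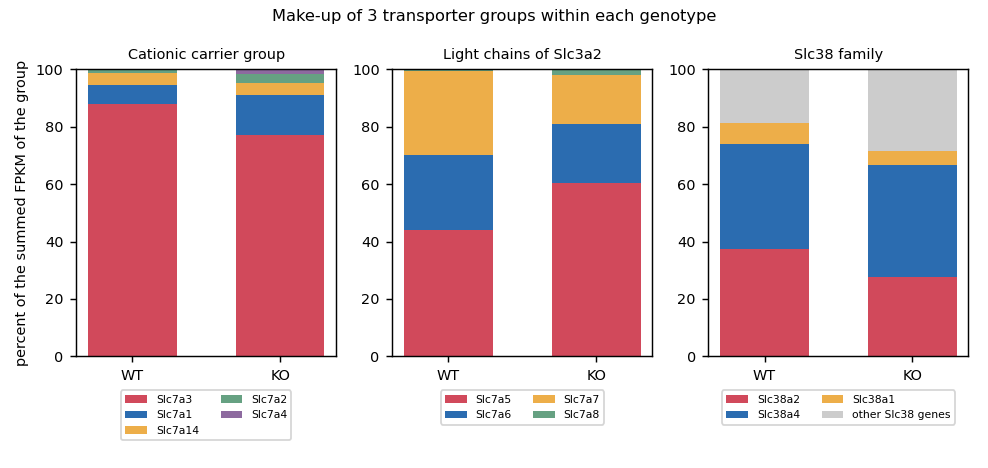
Percent of the summed FPKM of each group held by each gene in WT and KO, 1 pooled value per genotype and no error. The share of Slc7a3 among cationic carriers is 87.9% in WT and 77.0% in KO, that of Slc7a5 among the light chains of Slc3a2 is 43.9% and 60.2%, and Slc38a2, Slc38a4 and Slc38a1 hold 81.3% and 71.4% of the Slc38 family.

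Exchangers of small neutral amino acids were not called, and carriers of glutamate and aspartate moved apart. Slc1a5, the ASCT2 exchanger that takes up glutamine, stood at 23.7 (WT) and 25.99 FPKM (KO) by the authors' deposited table (0.13, q = 0.505). Slc1a4, the ASCT1 exchanger of alanine, serine and cysteine, stood at 12.6 and 12.8 FPKM by the authors' deposited table (0.02, q = 0.941). A q above the threshold does not show that their levels were equal.

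Slc1a1 had the largest fold change of the 43 genes. Slc1a1 (chromosome 19, 28909655 to 28988450), a high-affinity glutamate and aspartate carrier that also imports cysteine, rose from 0.636 to 3.45 FPKM by the authors' deposited table, 5.43-fold (2.44, q = 0.000206). Of tested genes in its decile 99.4% lay below it. Slc1a3 (chromosome 15, 8584123 to 8660807), the glial glutamate carrier GLAST, went the other way, from 4.30 to 2.08 FPKM by the authors' deposited table (-1.05, q = 0.000206), with 2.28% of its decile below it. Slc1a3 thus led Slc1a1 in WT and stood below it in KO. Slc1a6 rose from 0.387 to 0.882 FPKM by the authors' deposited table (1.19, q = 0.00244), with 70.3% of its decile below it. Slc1a7, at 0.442 and 0.453 FPKM, was not called.

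In the Slc38 family of sodium-coupled carriers for glutamine and other neutral amino acids, the neighbours on chromosome 15 were lower or not called, and 5 scarcer members were higher. Of 10 tested members 50% were called higher and 20% lower, against 22.4% and 28.4% of all tested genes. Level shifts these shares: 34.2% of all tested genes with a mean under 10 FPKM were higher, and 50.8% of the others lower. Slc38a1 (96401848 to 96473344) and Slc38a2 (96517822 to 96530129) encode system A carriers of the cell surface, and Slc38a4 (96825253 to 96886387) is an imprinted gene beside them. Slc38a1 fell from 15.5 to 9.09 FPKM by the authors' deposited table (-0.77, q = 0.000206), with 9.26% of its decile lower. Slc38a2 fell from 77.1 to 52.3 FPKM by the authors' deposited table (-0.56, q = 0.00119), near the middle of its decile with 44.4% lower, and turns to 0.093 with equal totals. Slc38a4 stood at 75.5 and 73.2 FPKM by the authors' deposited table (-0.05, q = 0.824) and was not called.

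The Slc38 genes that rose included system N carriers and lysosomal members. Slc38a3, a system N glutamine carrier on chromosome 9, rose from 2.13 to 5.92 FPKM by the authors' deposited table (1.47, q = 0.000206), above 97.6% of its decile. Slc38a8 rose from 0.413 to 1.68 FPKM by the authors' deposited table (2.02, q = 0.000206), and Slc38a5, also of system N, from 0.461 to 0.908 FPKM (0.98, q = 0.00605). Of the decile of Slc38a5 61.9% lay lower. Slc38a7, a lysosomal glutamine exporter, rose from 8.76 to 12.9 FPKM by the authors' deposited table (0.56, q = 0.00297). Slc38a9, the lysosomal arginine sensor of mTORC1, rose from 1.46 to 2.01 FPKM by the authors' deposited table (0.46, q = 0.0236), close to the middle of its decile with 56.6% lower. Slc38a10 (22.3 and 26.6 FPKM) and Slc38a6 (3.06 and 3.88 FPKM) were not called.

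Proton-coupled and facilitated carriers were higher or not called. Slc36a1, the lysosomal carrier PAT1 (chromosome 11, 55017841 to 55049832), rose from 2.74 to 5.38 FPKM by the authors' deposited table (0.97, q = 0.000206). Its neighbour Slc36a2 rose from 0.236 to 0.708 FPKM by the authors' deposited table (1.58, q = 0.00056), while Slc36a4 on chromosome 9 stood at 0.753 and 1.10 FPKM and was not called. The WT value of Slc36a2 lay below the highest FPKM of an untested row (0.366), so this gene may have been tested through KO alone. With a pseudocount of 1 the log2 fold change of Slc36a2 was 0.47. Among the Slc43 genes, Slc43a3, a nucleobase carrier by later work, rose from 4.07 to 8.07 FPKM by the authors' deposited table (0.99, q = 0.000206), above 93.6% of its decile. Slc43a2, which encodes the leucine facilitator LAT4, rose from 1.85 to 2.53 FPKM by the authors' deposited table (0.45, q = 0.0294), with a small RNA gene, Mir3971, inside its region. Of the decile of Slc43a2 55.8% lay lower. Slc43a1, which encodes LAT3, stood at 5.53 and 5.76 FPKM by the authors' deposited table (0.06, q = 0.809) and was not called.

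Within the Slc6 family, the tested carriers of taurine, creatine and GABA rose, and the 4 tested carriers of protein-building amino acids were not called. Slc6a6, the taurine carrier, rose from 16.9 to 24.6 FPKM by the authors' deposited table (0.54, q = 0.00134), where 95.2% of its decile lay lower. Slc6a8, the creatine carrier on the X chromosome, rose from 9.77 to 15.03 FPKM by the authors' deposited table (0.62, q = 0.000722), where 94.0% lay lower. Slc6a13, a GABA carrier, rose from 1.10 to 1.70 FPKM by the authors' deposited table (0.63, q = 0.0214), nearer the middle of its decile, where 58.7% lay lower. These 3 genes together held 3.92% of the summed FPKM of the carriers in WT and 6.84% in KO.

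The uncalled Slc6 genes were mostly scarce. Slc6a15, which carries branched-chain amino acids and proline, stood at 6.83 and 5.23 FPKM by the authors' deposited table (-0.39, q = 0.0586). Slc6a9, the glycine carrier GlyT1, stood at 0.987 and 1.34 FPKM by the authors' deposited table (0.44, q = 0.188), and its region overlaps Ccdc24. The proline carrier gene Slc6a7 stood at 0.764 and 1.04 FPKM and Slc6a18 at 0.897 and 0.854 FPKM by the authors' deposited table, neither called.

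Of the opposite-strand rows, one fell and the other was not called. Slc7a6os (chromosome 8, 108724337 to 108734833), just beyond Slc7a6, fell from 99.7 to 44.7 FPKM by the authors' deposited table (-1.16, q = 0.000206), the lowest fold change of the 43 and lower than all but 4.84% of its decile. Slc7a6 itself stood at -0.49 in the authors' deposited table, as did the next gene, Prmt7, at -0.49 (93.4 to 66.5 FPKM). Slc36a1os stood at 1.84 and 2.30 FPKM by the authors' deposited table (0.32, q = 0.228) and was not called. The kit kept the strand, but the sources used here do not tell how reads were counted by strand, so reads of neighbours are uncertain where they overlap. The deposited regions of Slc7a6os and Slc36a1os overlapped no other gene's region.

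By family, the 43 genes gave medians above 0 except in Slc3, but that of Slc7 turned to -0.13 over genes with a mean of at least 1 FPKM and that of Slc6 to -0.024 against the deciles by level and -0.19 against classes by level and transcript length. The median log2 fold change was 0.08 over 6 Slc1 genes, 0.25 over 12 Slc7 genes, 0.40 over 10 Slc38 genes, 0.44 over 7 Slc6 genes, 0.45 over 3 Slc43 genes and 0.76 over 4 Slc36 genes, and Slc3 was Slc3a2 alone at -0.49, which turns to 0.16 with equal totals. Genes called higher and lower numbered 2 and 1 in Slc1, 4 and 5 in Slc7, 5 and 2 in Slc38, 3 and 0 in Slc6, 2 and 0 in Slc43 and 2 and 0 in Slc36. Slc7a6os, not a carrier by name, is among the 5 Slc7 genes called lower. Slc36a1os is counted in Slc36, and without it the median over the 3 tested Slc36 carriers was 0.97. Slc36a2 and Slc7a15, both called higher, may have been tested through their KO values alone. Each count is to be read against the 22.4% and 28.4% of all tested genes, and against level. Among all tested genes with a mean under 10 FPKM, 34.2% were called higher and 11.2% lower. At 10 FPKM or more these shares were 7.47% and 50.8%. All tested Slc36 and Slc43 genes had means under 10 FPKM.

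**Figure D3:**
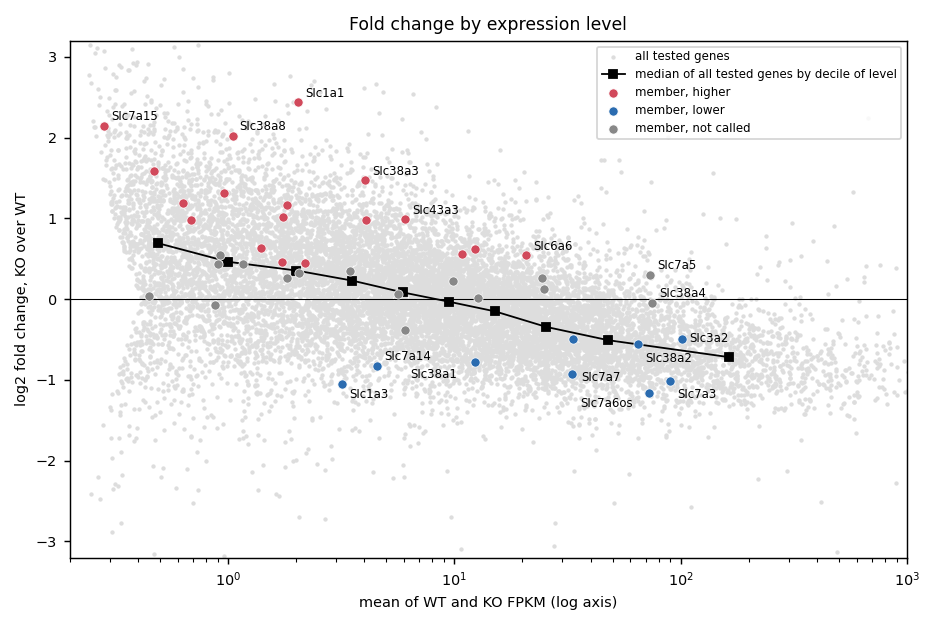
Log2 fold change of KO over WT against mean FPKM (log axis) for all tested genes (grey; 155 of 14039 lie outside the axes), with the median per decile of level (black squares) and the 43 genes in colour by call. The 43 follow the downward slope of the table, with Slc1a1 and Slc38a3 far above the black line and Slc1a3 and Slc7a14 far below it.

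Set against genes of similar level, the genes spread to both sides. The median of the decile was exceeded by 27 of the 43 and not reached by 16, and the median difference was 0.17. The genes farthest above were Slc1a1 (2.09), Slc38a8 (1.56), Slc7a15 (1.45) and Slc38a3 (1.24), and those farthest below were Slc1a3 (-1.28), Slc7a14 (-1.05), Slc1a7 (-0.66) and Slc7a6os (-0.65). Of these, Slc7a15 may have been tested through its KO value alone. Slc3a2, called lower as measured, lay 0.23 above the median of its decile, and the falls of Slc38a2 (-0.05) and Slc7a6 (-0.15) were close to it. The falls of Slc1a3, Slc7a14, Slc38a1 (-0.62) and Slc7a7 (-0.59) lay more than 0.5 below their deciles. Other solute carriers resembled these: of 185 tested genes of other Slc families, 70 (37.8%) were called higher and 28 (15.1%) lower, with a median of 0.26, and 110 lay above the median of their decile. The difference between these groups was not tested.

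**Figure D4:**
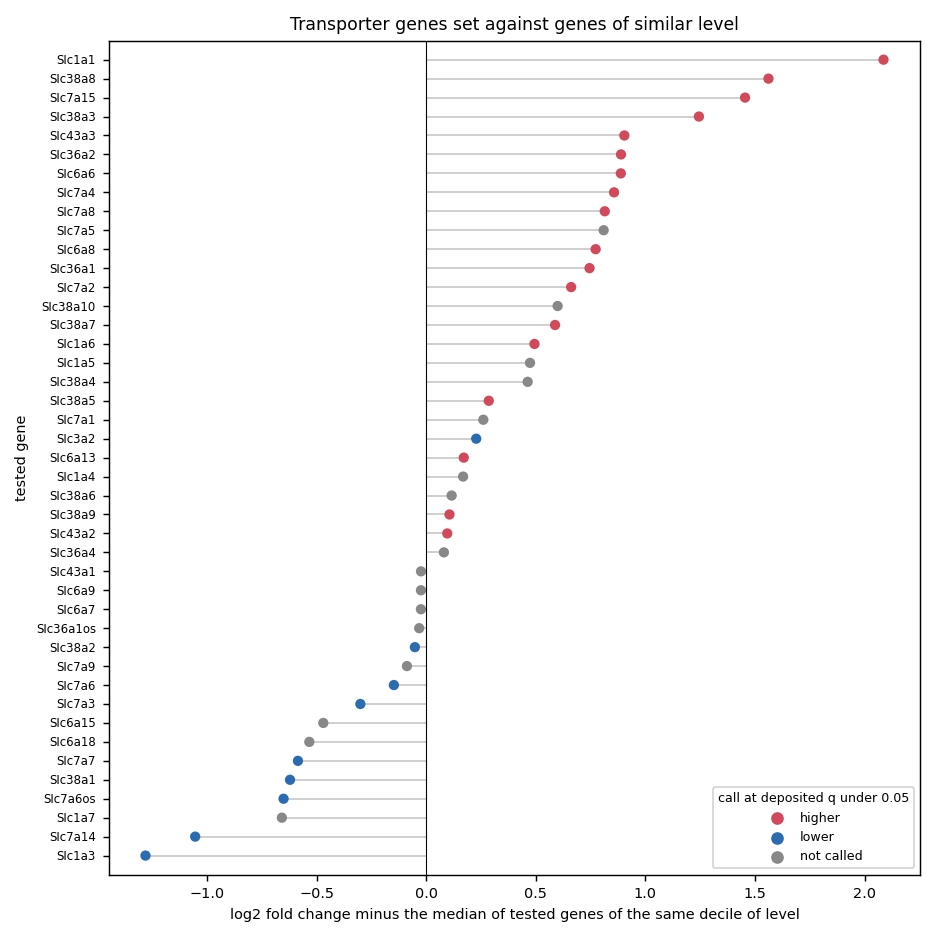
Log2 fold change of each of the 43 genes minus the median of tested genes of its decile by mean FPKM, coloured by the deposited call. Slc1a1 stands at 2.09 and Slc1a3 at -1.28, and Slc3a2, called lower, lies at 0.23.

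Amino acid carriers outside these families were called at shares near those of all tested genes. Of 21 listed, 14 were tested, of which 4 (28.6%, against 22.4%) were called higher and 4 (28.6%, against 28.4%) lower, with a median of -0.09 (0.56 with equal totals). Of 7 tested carriers of the mitochondrial inner membrane 4 were called lower, and Slc25a15 (-0.26), Slc25a44 (-0.18) and Slc25a22 (0.0034) were not called. Of all tested genes 28.4% were called lower, and 50.8% of those with a mean of at least 10 FPKM. Sfxn1, a mitochondrial serine carrier, fell from 37.8 to 22.4 FPKM by the authors' deposited table (-0.75, q = 0.000206), and the aspartate-glutamate carriers Slc25a12 (-0.54) and Slc25a13 (-0.42) and the glycine carrier Slc25a38 (-0.56) were also called lower in the authors' deposited table. Against the medians of their deciles these 4 stood at -0.53 (Slc25a38), -0.41 (Sfxn1), -0.39 (Slc25a12) and 0.093 (Slc25a13). The 4 that rose were Slc17a7 (1.93), a vesicular glutamate carrier, the peptide carriers Slc15a1 (0.89) and Slc15a2 (0.54), and the aromatic amino acid carrier Slc16a10 (0.62), by the authors' deposited table.

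Genes of the transcriptional response to amino acid shortage, which also reaches several carrier genes, were called at shares near those of all tested genes. Of 30 listed genes 29 were tested, with 6 (20.7%, against 22.4%) called higher and 9 (31.0%, against 28.4%) lower and a median of -0.20 (0.45 with equal totals), beside -0.06 over all tested genes. The median difference of the tested genes of this list from the medians of their deciles was 0.089. Atf4, the transcription factor of this response, fell from 363 to 183 FPKM by the authors' deposited table (-0.98, q = 0.000206). Against the median of its decile Atf4 stood at -0.27. That decile was the highest, where 77.2% of all tested genes were called lower. Cebpb (-0.92), a partner of ATF4, and Trib3 (-0.82), a pseudokinase that restrains it, were also called lower in the authors' deposited table. Asns, asparagine synthetase, stood at 215 and 216 FPKM by the authors' deposited table (0.01, q = 0.978) and was not called; it was named after its values were seen. Vegfa (1.42), a growth factor also induced by hypoxia, Pycr1 (1.05), an enzyme of proline synthesis, and Jdp2 (0.93) rose most in the authors' deposited table.

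Genes by which mTORC1 senses amino acids were called in both directions. Of 33 tested of 34 listed, 8 (24.2%, against 22.4% of all tested genes) were called higher and 14 (42.4%, against 28.4%) lower, with a median of -0.20 (0.45 with equal totals). Among all tested genes with a mean of at least 4 FPKM, 40.4% were called lower, and the median difference of the listed genes from their deciles was 0.042. Rragb (-1.34), a Rag GTPase, Rheb (-1.10), the GTPase that activates the kinase, and Lamtor3 (-0.90), a subunit of the lysosomal anchor, fell most in the authors' deposited table. Depdc5 (1.24) of the inhibitory GATOR1 complex and Mtor itself (0.72) were among those called higher in the authors' deposited table. Slc38a9, which belongs to this route as well, rose as given above.

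**Figure D5:**
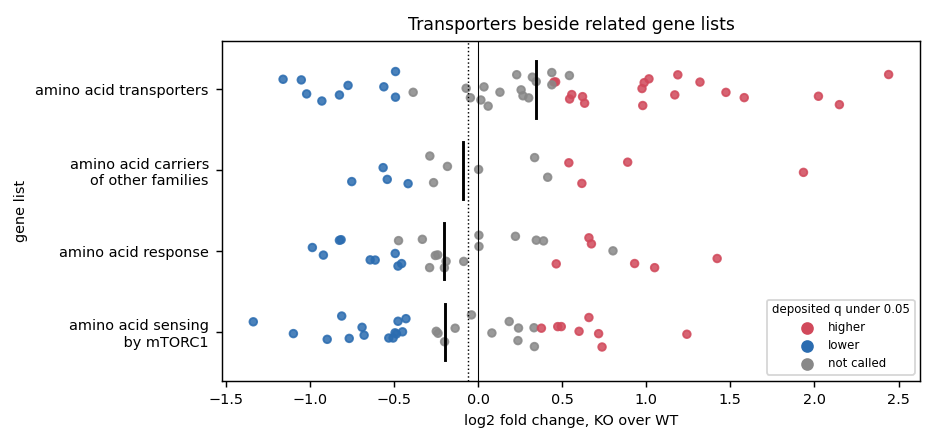
Log2 fold change of KO over WT for the 43 transporter genes and for 3 related gene lists, 1 point per gene coloured by the deposited call, with the list's median as a black bar and the median of all tested genes as a dotted line. The median of the transporters is 0.35, that of the other amino acid carriers -0.09, and those of the response and sensing lists are both -0.20.

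The 21 rows that were not tested were at most at 0.366 FPKM in either genotype. They included Slc7a11, the cystine carrier xCT (0.160 (WT) and 0.0928 FPKM (KO) by the authors' deposited table), and Slc3a1, the heavy chain that pairs with Slc7a9 (0.0958 and 0.0911 FPKM). The untested row nearest to the tested ones was Slc6a12, a betaine and GABA carrier, at 0.0216 and 0.366 FPKM, and the tested gene nearest to them by its higher value was Slc1a7, at 0.453 FPKM. Slc7a12 and Slc6a19os were listed at 0 in both genotypes. Slc7a15 and Slc36a2 had WT values below 0.366 FPKM and KO values above it, so they may have entered the test through KO alone, and without them 16 of 41 genes were called higher.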

How the data were processed

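Total RNA was extracted with a column kit and made into strand-specific messenger RNA libraries, per the labels' protocols. Reads were aligned to mm9 with TopHat2, per the submitters' processing notes (no version named). The annotation and the scaling between libraries are not given in the sources used here. By its column names, per the file headers, the table is a Cuffdiff comparison of genes. It holds the authors' FPKM, 1 value per genotype, their log2 fold change, their test statistic (a score), and their p-value and q-value. No expression test was run anew, and a gene was called at the deposited q under 0.05.

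For each gene the median log2 fold change of tested genes in the same of 10 classes by mean FPKM was subtracted as a description, leaving out 56 tested genes with no finite fold change. Classes by transcript length used the longest GENCODE M21 transcript, found by name for 99.3% of genes, and were an addition made with the data in view. The functions were tested on simulated data. Every tested gene of the rule was named, and of other lists the 3 called genes that moved most each way, or all where a count was 5 or fewer. A gene that this rule picks is not reported here. The genes and lists were chosen with earlier results of these data known. Alternatives were q under 0.01 or 0.1, a 2-fold threshold, a mean of at least 1 FPKM, a pseudocount of 1, equal totals, means, and leaving out opposite-strand or shared regions. Python 3.11.15, NumPy 2.4.6, pandas 2.3.3, SciPy 1.17.1 and Matplotlib 3.10.9 were used.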

Additional observations from a re-analysis of the deposited data

How the results depend on the processing

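No paired analysis was possible because the deposited table holds 1 pooled value per genotype; for the same reason no library could be left out in turn. Changes of direction are given for called genes, and a median counts as moved when it differs by over 1.5 times on the linear scale. The counts of transporter genes called higher and lower stayed within 1.5 times of 18 and 9 at q under 0.01 or 0.1, at a mean of at least 1 FPKM, and without opposite-strand or shared regions. With a 2-fold threshold they were 9 and 3, and those of the response, sensing and other carrier lists were 2 and 0, 1 and 2, and 1 and 0. At q under 0.01 the other carriers called higher were 2. With equal totals the median of the 43 genes was 0.999, those of Slc1, Slc6, Slc7, Slc36, Slc38 and Slc43 were 0.74, 1.09, 0.90, 1.41, 1.06 and 1.10, and those of the response, sensing and other carrier lists turned to 0.45, 0.45 and 0.56. Equal totals also turned Slc3a2 (0.16), Slc7a6 (0.16) and Slc38a2 (0.093), so that the 27 calls would split into 21 above and 6 below 0, where they split into 18 and 9 as measured; over all tested genes with a finite fold change the 7159 calls would go from 3160 above and 3999 below 0 to 4785 and 2374. Against the median of the level decile, Slc3a2 and with it the Slc3 family turned to 0.23, the Slc6 median to -0.024, and the response, sensing and other carrier medians to 0.089, 0.042 and 0.069. Against classes by level and length these were 0.12, -0.19, 0.12, 0.14 and 0.031, and Slc38a9 and Slc43a2 turned to -0.029 and -0.039. The Slc7 median was -0.13 at a mean of at least 1 FPKM, and the mean of the other carriers was 0.12 where their median was -0.09. The pseudocount turned none of the 11 medians and none of the 43 genes. Of the 27 called genes, 3 lost the call at q under 0.01 and 15 at the 2-fold threshold, and 3 further genes gained it at q under 0.1. The cause was not tested in any of these, apart from equal totals, which adds 0.65 to every value.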
